A study of Homo sapiens with 12 samples.

Results

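The 10 genes FAT1, CELSR1, CELSR2, CDH1, CDH2, CDH17, CDHR5, PCDH1, DSG2 and DSC2 encode cadherins, and they were read in 12 RNA libraries of the HepG2 and Ls174 cell lines. They were found by gene name among the 57736 genes of the deposited tables, and the counts of all 3′ regions of a gene were summed. HepG2 is a line from a human liver cancer and Ls174 a line from a human colon cancer, both listed as wild type, and every library of a line comes from that single line. Each line was sampled as 3 untreated control libraries and 3 libraries of cells cultured for 24 h with HME, a methanol extract of the red seaweed Hypnea musciformis, at 0.7 mg/ml according to the labels. The methods of the study give a slightly higher concentration. The 4 groups are called HepG2 control, HepG2 HME, Ls174 control and Ls174 HME, and the comparisons ask how the extract changed expression in each line and how the lines differed. The 10 genes were selected with their values in these same comparisons known, so all their levels and differences are given as a description and without p-values.

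Cadherins are membrane proteins with repeated extracellular domains that bind calcium. The classical cadherins CDH1 (E-cadherin) and CDH2 (N-cadherin) join neighbouring cells at adherens junctions, where catenins tie them to actin filaments. The desmosomal cadherins DSG2 and DSC2 join cells at desmosomes, where plaque proteins tie them to keratin filaments. FAT1 is a giant atypical cadherin that takes part in cell polarity and in the control of growth and actin. CELSR1 and CELSR2 are cadherins with the membrane domain of an adhesion G protein-coupled receptor and belong to the planar cell polarity pathway. PCDH1 is a non-clustered protocadherin of epithelia, CDH17 (liver-intestine cadherin) is a cadherin of the intestinal epithelium, and CDHR5 is a microvillus cadherin that pairs with CDHR2 at the brush border.

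The libraries were made from the 3′ ends of polyadenylated RNA, so the reads of a gene come from the stretch before its poly(A) tail and a count does not grow with transcript length. For each of the 10 genes, a single region held at least 92.0% of the counts. These regions, in GRCh37 coordinates, were chr4:187508740-187509745 on the minus strand for FAT1, chr1:109816672-109818569 on the plus strand for CELSR2, chr16:68867193-68869648 on the plus strand for CDH1 and chr18:25530733-25532116 on the minus strand for CDH2. Those of DSG2 (chr18:29126707-29129168, plus strand), DSC2 (chr18:28645743-28648178, minus strand), PCDH1 (chr5:141242020-141244992, minus strand), CELSR1 (chr22:46756534-46759074, minus strand) and CDHR5 (chr11:616368-617770, minus strand) were found in the same way. Between 79.3% (FAT1) and 100% (DSC2) of the bases of a region were annotated as untranslated sequence in at least 1 transcript. Each region ran 188 to 221 nt past the nearest annotated transcript end. In PCDH1, 76.6% of the bases are also coding sequence of other isoforms. The region of CDH2 overlaps a gene on the opposite strand, ENSG00000227279, and that of DSG2 overlaps DSG2-AS1. Whether reads were assigned by strand is not given in the sources used here, so reads of these pairs cannot be told apart.

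The stretches below lie at the annotated transcript ends inside the counted regions. Each has 30 bases and holds the poly(A) signal, AATAAA or its variant ATTAAA, in capitals. They were read from GRCh37 at chr1:109818344-109818373 (CELSR2, plus strand), chr16:68869411-68869440 (CDH1, plus strand), chr18:25530931-25530960 (CDH2, minus strand), chr18:29128932-29128961 (DSG2, plus strand), chr4:187508948-187508977 (FAT1, minus strand) and chr5:141242217-141242246 (PCDH1, minus strand).
CELSR2: actactgAATAAActagttctgtgcgggta
CDH1: ttataaattttATTAAAcaattttgttaaa
CDH2: gttctgAATAAAatgctaattttggatctg
DSG2: gcttgcAATAAAaaaagttgtcggttatct
FAT1: tcttactgacAATAAAttattaataaaata
PCDH1: accctgacAATAAAgttctctatttttgga
The signal in capitals starts 19 (CDH1) to 34 nt (DSG2) before the annotated end, and the stretch of FAT1 holds a further AATAAA, left in lower case, nearer to that end. A signal of either form was found in the last 60 nt of 7 of the 10 genes, not in those of CELSR1, CDHR5 and DSC2, and in 79.7% of the 9677 highest regions of genes with 100 or more counts.

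The libraries held between 1790841 (HepG2 HME 3) and 3656662 (HepG2 control 1) counts, and levels are given below as CPM, the count per 1e6 counts of a library, after 1 scaling of the 12 libraries. The floor of the measurement, a count of 3 in the library where it weighs most, was 1.85 and 1.79 CPM for the control and HME groups of HepG2 and 1.47 and 1.09 CPM for those of Ls174, and it covers counting error only. The labels of the lines matched their markers. The summed level of 8 liver markers was 18100 to 21300 CPM in HepG2 control, 12800 to 14000 in HepG2 HME and 0 to 126 in Ls174, and that of 8 intestinal markers was 372 to 442 CPM in Ls174 and 68.6 to 208 in HepG2, where villin (VIL1) gave most of it. The libraries Ls174 control 1, HepG2 control 2 and HepG2 HME 2 stood apart from their groups, and values without them are given where they matter. Ls174 control 1 held a count for 13885 genes, against 17139 and 18324 in Ls174 control 2 and 3. The smallest library, HepG2 HME 3, held a count for 16839 genes. HepG2 HME 2 also held 1010 CPM of 8 mesenchymal markers, with COL1A1 at 546, COL1A2 at 404 and VIM at 60.2, against 0.309 to 16.7 CPM in the other 11 libraries. The mesenchymal cadherin CDH11 gave 223 counts (78.1 CPM) in this library and at most 1 count in any other. Of 6 blood markers 3 were at 0 throughout, but the list summed to 197 to 720 CPM in HepG2, mainly through LYZ (90.3 to 548 CPM) and CD74 (107 to 170 CPM), against 0.489 to 5.85 CPM in Ls174. The 5 endothelial markers summed to at most 4.33 CPM.

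**Figure D1:**
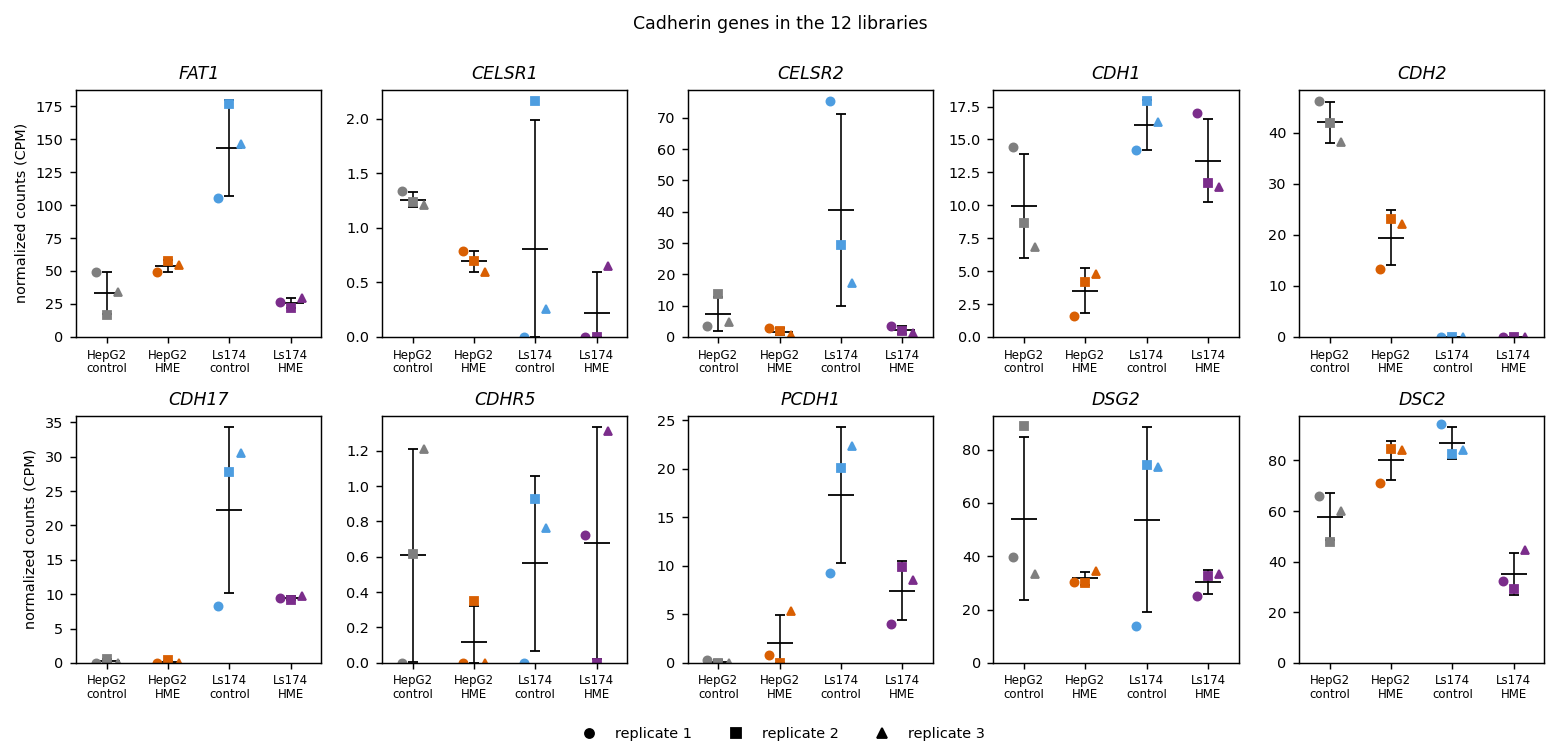
Normalized counts (CPM, vertical axis, separate scale for each gene) of the 10 cadherin genes in the 12 libraries. Symbols mark replicates 1 to 3, the wide bar the group mean and the error bar the SD of 3 libraries. FAT1 lies at 105 to 177 CPM in Ls174 control and at 21.9 to 29.4 in Ls174 HME, and CDH2 is at 0 in all Ls174 libraries.

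CDH1, the E-cadherin of epithelial adherens junctions, was lower with HME in HepG2 and differed little in Ls174. Its levels were 14.4, 8.66 and 6.83 CPM in HepG2 control and 1.57, 4.20 and 4.78 CPM in HepG2 HME. No treated library reached the lowest control, and the log2 fold change was -1.52 (SE 0.54). In Ls174 the levels were 14.2, 17.9 and 16.3 CPM in control and 17.0, 11.7 and 11.4 CPM in HME, which overlapped, with a log2 fold change of -0.28 (SE 0.29). In RNA of whole cultures, fewer cells that make a transcript and less of it per cell cannot be told apart, here and below. CDH1 rested on few reads in HepG2, 54, 14 and 17 counts in control and 4, 12 and 8 in HME. The liver markers were also lower in sum in HepG2 HME than in HepG2 control, without overlap. At the thresholds given below, 2 of the 8 (APOA1 and APOB) were called lower. That is 25%, against 22.2% of all genes called and 10.9% called lower, and 0 of the 8 passed an adjusted p under 0.05. The part of the liver markers in the differences of CDH1 and CDH2 was not tested.

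CDH2, the N-cadherin typical of neural and mesenchymal cells and also known from hepatocytes, was counted only in HepG2. It gave 46.2, 42.0 and 38.2 CPM in HepG2 control and 13.4, 23.1 and 22.1 CPM in HepG2 HME. The groups did not overlap, and the log2 fold change was -1.10 (SE 0.33). HepG2 HME 2, the library with the mesenchymal markers, gave a CDH2 level close to that of HepG2 HME 3, and the log2 fold change without it was -1.23. All 6 Ls174 libraries held 0 counts of CDH2, against 336 counts in HepG2 control and 137 in HepG2 HME. Measured against the floor of 3 counts in a library, CDH2 was at least 28.6-fold lower in Ls174 control than in HepG2 control and at least 17.9-fold lower in the HME groups. The regions of CDH2 and CDH1 also differ in base composition, with 33.2% and 44.2% GC.

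DSG2, the desmoglein found in all tissues with desmosomes, showed wide spread between control libraries. It stood at 39.8, 89.0 and 33.3 CPM in HepG2 control and at 30.3, 30.1 and 34.6 CPM in HepG2 HME. In Ls174 it stood at 13.7, 74.1 and 73.3 CPM in control and at 25.0, 32.5 and 33.3 CPM in HME. The groups overlapped in both lines. The log2 fold changes were -0.78 (SE 0.43) in HepG2 and -0.84 (SE 0.51) in Ls174. The HepG2 value depended on a single control library and was -0.14 without HepG2 control 2. The Ls174 value was -1.27 without Ls174 control 1 and -0.55 without Ls174 control 2.

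DSC2, the desmocollin that pairs with DSG2, was higher with HME in HepG2 and lower with HME in Ls174. Its levels were 66.0, 47.6 and 59.9 CPM in HepG2 control and 71.2, 84.7 and 84.2 CPM in HepG2 HME, so that each treated library lay above each control. In Ls174 they were 94.4, 82.4 and 84.0 CPM in control and 32.3, 29.0 and 44.8 CPM in HME, where each treated library lay below each control. The log2 fold change was 0.48 (SE 0.29) in HepG2 and -1.30 (SE 0.23) in Ls174. With a correction for GC content the HepG2 value was 0.24. The region of DSC2 has 31.4% GC, below the 10th percentile of 13040 genes (32.7%), and HepG2 control 1 and 2 departed from their group along GC content with Pearson correlations of -0.25 and 0.23 across these genes. The part of base composition in the HepG2 difference was not tested further.

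FAT1, the giant atypical cadherin, was lower with HME in Ls174 and higher in HepG2. It gave 48.9, 16.7 and 34.1 CPM in HepG2 control and 49.2, 57.8 and 54.3 CPM in HepG2 HME. In Ls174 it gave 105, 177 and 146 CPM in control and 26.5, 21.9 and 29.4 CPM in HME. The Ls174 groups lay far apart, while the HepG2 groups nearly touched at 48.9 and 49.2 CPM. The group means were 143 ± 36.4 in Ls174 control, 53.8 ± 4.32 in HepG2 HME, 33.2 ± 16.1 in HepG2 control and 25.9 ± 3.77 CPM in Ls174 HME (SD, n = 3 each). The last neighbours in this order, HepG2 control and Ls174 HME, overlapped. The log2 fold change with HME was -2.46 (SE 0.25) in Ls174, where it lay between -2.63 and -2.28 over 16 alternatives, and 0.71 (SE 0.37) in HepG2, where it was 0.44 without HepG2 control 2.

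CELSR2, a 7-pass cadherin of planar cell polarity, had the largest difference with HME among the 7 tested cadherin genes in Ls174. Its levels were 75.3, 29.3 and 17.1 CPM in Ls174 control and 3.62, 1.77 and 1.31 CPM in Ls174 HME, or 154, 95 and 67 counts against 10, 5 and 4. The highest treated library lay below the lowest control by several fold, although the controls themselves ranged widely. The log2 fold change was -4.17 (SE 0.67), and it was -3.36 without Ls174 control 1, the library with the highest level. In HepG2 the gene lay below the count filter, at 3.47, 13.6 and 4.82 CPM in control and 2.75, 1.75 and 0.597 CPM in HME. These groups did not overlap, and the summed counts of 47 and 13 gave a control level 3.26 times that of HME, with a 95% counting interval of 1.74 to 6.57. That interval leaves out the spread between libraries, and 22 of the 47 control counts came from HepG2 control 2. The order of the means was Ls174 control (40.6 ± 30.7), HepG2 control (7.30 ± 5.50), Ls174 HME (2.23 ± 1.23) and HepG2 HME (1.70 ± 1.08 CPM, SD, n = 3 each). HepG2 control overlapped Ls174 HME, and Ls174 HME overlapped HepG2 HME.

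CELSR1, the paralogue of CELSR2, was at or near the floor throughout. It gave 0 to 7 counts in a library, and the groups summed to 10 (control) and 5 (HME) in HepG2 and to 8 and 2 in Ls174. The intervals of the ratios between groups all included 1, so no difference was detectable at this depth.

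PCDH1, the epithelial protocadherin, was counted mainly in Ls174. It gave 9.29, 20.1 and 22.4 CPM in Ls174 control and 3.99, 9.90 and 8.50 CPM in Ls174 HME. The groups overlapped through Ls174 control 1 alone, and the log2 fold change was -1.22 (SE 0.45), or -1.49 without that library. In HepG2 control it gave 1, 0 and 0 counts. In HepG2 HME it gave 2, 0 and 9 counts, so that most of its reads came from the smallest library.

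CDH17, the cadherin of the intestinal epithelium, was also counted mainly in Ls174. It gave 8.31, 27.8 and 30.5 CPM in Ls174 control and 9.42, 9.20 and 9.80 CPM in Ls174 HME. Ls174 control 1 lay below all treated libraries and the other 2 controls lay far above them. The log2 fold change was -1.25 (SE 0.45) with all libraries and -1.61 without Ls174 control 1. HepG2 control and HepG2 HME held 1 count each. CDHR5, a cadherin of the brush border, gave 0 to 4 counts in a library, and the intervals of its ratios between groups all included 1.

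**Figure D2:**
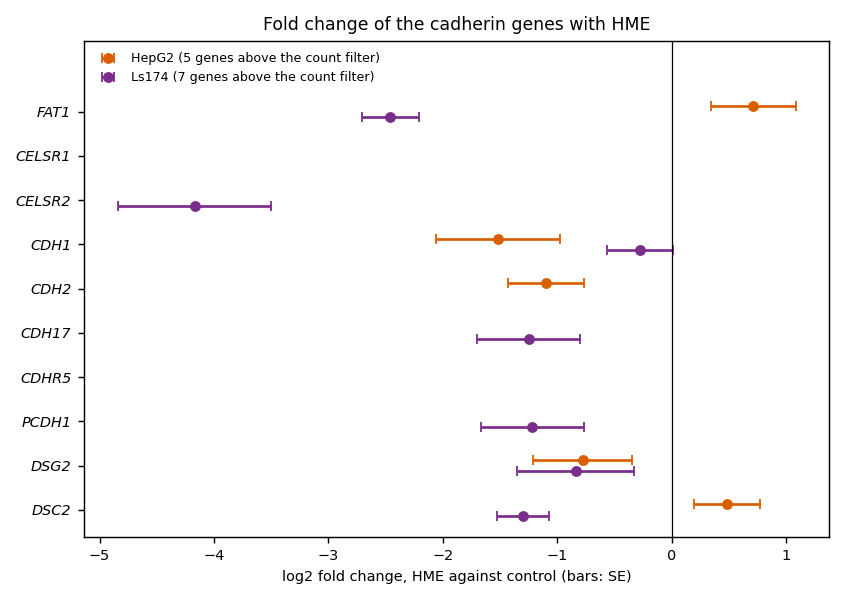
Log2 fold change of HME against control (horizontal axis) for the cadherin genes that passed the count filter, with 5 in HepG2 and 7 in Ls174. Points are fitted values and bars their SE. All 7 points of Ls174 lie below 0, from -0.28 (CDH1) to -4.17 (CELSR2), while in HepG2 FAT1 (0.71) and DSC2 (0.48) lie above 0.

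In all, 5 of the 10 genes passed the count filter in HepG2 and 7 in Ls174. In HepG2, 2 of the 5 (CDH1 and CDH2) were called lower at the thresholds of the study's methods, a log2 fold change beyond 0.58 either way with an unadjusted p under 0.05, where 22.2% of 11343 genes were called and 10.9% were called lower. The groups of 4 of the 5 did not overlap (FAT1, DSC2, CDH1 and CDH2), as was the case for 30.8% of all tested genes. In Ls174, 5 of the 7 (FAT1, CELSR2, CDH17, PCDH1 and DSC2) were called lower, against 12% of 11319 genes called and 7.85% called lower. Of the 7, the groups of 3 did not overlap (FAT1, CELSR2 and DSC2), against 23.8% of all tested genes. These genes were chosen on these contrasts, and nothing is read from the counts, nor from those between the lines below. Over all tested genes the median was -0.04 in HepG2 and 0 in Ls174 on the log2 scale.

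The responses of the lines were also set against each other, as the response in Ls174 minus that in HepG2. This difference of log2 fold changes was -3.13 (SE 0.49) for FAT1, -1.76 (SE 0.36) for DSC2, -2.25 (SE 1.06) for CELSR2, 1.27 (SE 0.61) for CDH1 and -0.08 (SE 0.70) for DSG2. FAT1 and DSC2 were higher in every HME library than in every control of HepG2, and lower in every HME library than in every control of Ls174. For PCDH1 it was -4.61 (SE 1.58), a value that rests mainly on the reads of HepG2 HME 3, since HepG2 control held 1 count.

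Between the untreated lines, FAT1 was higher in Ls174 with a log2 difference of 2.07 (SE 0.43), and its groups did not overlap. CELSR2 was higher in Ls174 by 2.47 (SE 0.72), a value of 1.71 without Ls174 control 1 and 3.25 without HepG2 control 2. CDH1 and DSC2 differed by 0.65 (SE 0.43) and 0.55 (SE 0.30), and DSG2 by -0.05 (SE 0.63), whose sign varied between alternatives. CDH17 and PCDH1 had 227 and 172 counts in Ls174 control against 1 count each in HepG2 control. The ratios were 194 for CDH17, with a 95% counting interval of 34.4 to 7680, and 147 for PCDH1, with an interval of 26.0 to 5820. Of the 8 tested genes, 5 were called, against 35% of 11907 genes, and 6 of 8 had groups that did not overlap, against 42.7%. Line and culture cannot be told apart in this design.

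Between the HME-treated lines, the order of FAT1 and DSC2 was turned. FAT1 was lower in Ls174 HME than in HepG2 HME by a log2 difference of -1.07 (SE 0.20) and DSC2 by -1.20 (SE 0.21), and neither had overlapping groups. CDH1 was higher in Ls174 HME by 1.93 (SE 0.41), also without overlap. DSG2 lay level at -0.08 (SE 0.21). CDH17 had 82 counts against 1, a ratio of 67.1 with an interval of 11.7 to 2680, and PCDH1 had 65 against 11, a ratio of 4.83 with an interval of 2.53 to 10.2. These intervals cover counting error only. Of the 11 PCDH1 counts, 9 came from HepG2 HME 3, and the PCDH1 groups overlapped. Its fitted log2 difference lay between 1.42 and 4.15 over alternatives. CELSR2 had 19 counts against 13, and the interval of the ratio, 0.56 to 2.63, included 1. Of the 7 tested genes, 6 were called, against 56.5% of 11914 genes, and 5 of 7 had groups that did not overlap, against 61.8%.

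**Figure D3:**
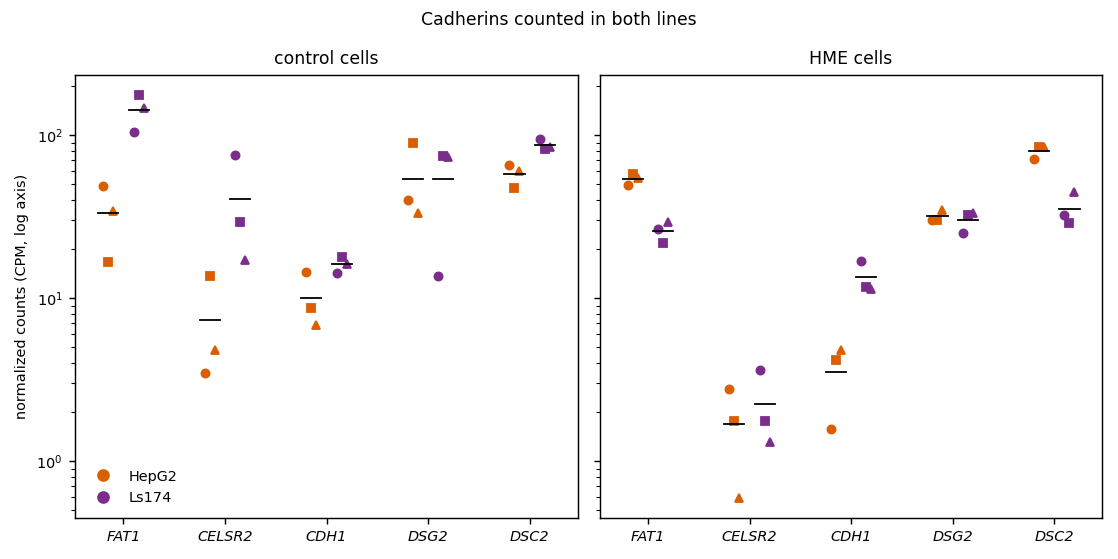
Normalized counts (CPM, log axis) of the 5 cadherin genes counted in both lines, in control cells (left) and HME cells (right). Each symbol is a library (circle, square and triangle for replicates 1 to 3) and each bar a group mean. FAT1 lies higher in Ls174 among control cells and higher in HepG2 among HME cells.

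Among genes with at least 10 CPM on average in both lines, those whose levels followed FAT1 most closely over the 12 libraries, after the mean of each line was taken off, were the transferrin receptor TFRC (Pearson r 0.96), TMEM33 (0.956), the Slit receptor ROBO1 (0.95), the phospholipid flippase ATP11A (0.948) and EPT1 (0.947), out of 7333 genes. Those closest to CELSR2 were the basement membrane protein NID1 (0.967), the glucosidase subunit GANAB (0.965), the nucleoporin NDC1 (0.958), the glycoprotein folding sensor UGGT1 (0.956) and the disulfide isomerase PDIA4 (0.954), out of 7334 genes. These points share libraries, groups and depth, and the correlations are a description. CELSR2 itself lay below the limit of 10 CPM in HepG2, with means of 7.30 in control and 1.70 in HME and 1 to 22 counts in a library.

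Other genes of cadherin adhesion were taken from 7 lists of 170 names, of which 169 were in the tables. The lists hold other cadherins, other protocadherins, catenins and plaque proteins, planar polarity genes, the microvillus adhesion complex, proteases that cut cadherins, and transcriptional repressors of CDH1. In HepG2, 52 of the 169 genes passed the count filter, and edgeR called 13 with HME at the thresholds of the methods, 8 higher and 5 lower. That is 25% of those tested, against 22.2% of all genes. At an adjusted p under 0.05, 4 of the 52 rose (MMP3, SNAI1, PVRL4 and ZEB1) and none fell, against 3.31% of all genes called. Of the 375 genes called in this way over the whole table, 83.7% were higher. The median log2 fold change of the 52 was -0.12, against -0.04 of all genes. With scaling by library size alone, which moved the median of all genes to -0.20, the calls were 6 higher and 6 lower.

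Of the 11 listed CDH1 repressors 3 were tested in HepG2. At an adjusted p under 0.05, 2 rose, SNAI1 and ZEB1, against 3.31% of all genes called. Both are zinc finger factors that bind E-boxes of the CDH1 promoter. TCF3, also tested, had a mean of 117 CPM in control and 106 CPM in HME (log2 fold change -0.12, SE 0.28, not called). The median of the 3, 1.79, is the value of ZEB1, and nothing is read from a group of this size. SNAI1 gave 4.27, 1.24 and 4.02 CPM in HepG2 control and 37.8, 44.8 and 63.3 CPM in HepG2 HME, with a log2 change of 3.85 (SE 0.45, adjusted p = 0.00249, edgeR quasi-likelihood test with Benjamini-Hochberg adjustment). ZEB1 gave 10.4, 4.95 and 7.63 CPM in control and 36.6, 23.5 and 20.3 CPM in HME, with a log2 change of 1.79 (SE 0.40, adjusted p = 0.0424). Every treated library lay above every control for both genes. SNAI1 stayed under 0.05 in all 15 alternatives. ZEB1 did so in 7 of 15, and missed it without HepG2 control 1, HepG2 control 3 or any of the HME libraries, with scaling by library size alone or by the upper quartile, and in 1 fit of 12 libraries, with a highest adjusted p of 0.158. In Ls174, SNAI1 gave 0, 3.71 and 4.33 CPM in control and 1.81, 6.37 and 4.25 CPM in HME, and ZEB1 at most 1.41 CPM in a library.

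Since these factors bind the E-box CAGGTG, the promoters of the cadherin genes were searched for it on both strands, from 250 bases before to 50 bases after each RefSeq start (GRCh38.p14). An entry was found for 6 of the 10 genes, with 9 start sites, and CDH1, CDH17, CDHR5 and CELSR1 had none. The E-box was found at 3 of the 9 start sites, 1 each of PCDH1, DSC2 and DSG2, and in 20.6% of 35116 promoters. The stretches of 30 bases around a match, with the E-box in capitals, are at chr5:141869691-141869720 (PCDH1, minus strand), chr18:31102560-31102589 (DSC2, minus strand) and chr18:31497933-31497962 (DSG2, plus strand), and the E-box starts 81, 156 and 232 bases before the start site.
PCDH1: cccagggagcgtCAGGTGggtgagggtgtt
DSC2: tcaactttctgtCAGGTGggcctcaggcag
DSG2: acgtcacggtccCAGGTGcgagtgcgagcg
DSG2 held 2 matches in its window, and none was found for FAT1, CELSR2 and CDH2. A match is a string of letters and not a measured binding site.

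Of the 10 listed proteases, 8 were tested in HepG2 and 2 were called, both higher (MMP3 and FURIN), or 25% against 22.2% of all genes. MMP3, a stromelysin that can cut E-cadherin at the cell surface, rose from 1.87, 0 and 3.21 CPM to 51.5, 59.5 and 60.3 CPM, with a log2 change of 4.94 (SE 0.57, adjusted p = 0.00246, edgeR). No treated library came near a control. In Ls174 it gave 0 to 0.489 CPM. ADAM10, the main sheddase of E-cadherin, gave 31.8, 20.4 and 39.0 CPM in HepG2 control and 27.2, 25.6 and 31.1 CPM in HepG2 HME, with a log2 fold change of -0.11 (SE 0.32).

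Among the 23 catenins and plaque proteins, 18 were tested in HepG2, and 3 were called higher (PVRL4, PERP and VCL) and 1 lower (PKP2), or 22.2%, the same share as over all genes. PVRL4 (nectin-4), an adhesion molecule that works beside cadherins, rose from 29.6, 23.5 and 25.3 CPM to 66.5, 83.7 and 91.4 CPM (log2 fold change 1.63, SE 0.30, adjusted p = 0.0196, edgeR), and kept an adjusted p under 0.05 in 10 of 16 alternatives, missing it without any of these same 5 libraries and in 1 fit of 12 libraries. The desmosomal plakophilin PKP2, at 12.3, 15.5 and 14.9 CPM in control and 8.26, 5.25 and 3.58 CPM in HME, was called lower at the thresholds of the methods (log2 fold change -1.27, SE 0.43) but missed the adjusted threshold (adjusted p = 0.126, edgeR). CTNNB1 (beta-catenin), the partner of classical cadherins, had a mean of 378 CPM in control and 267 CPM in HME (log2 fold change -0.51, SE 0.36, not called). Vinculin (VCL), which links catenins to actin, was called higher (log2 fold change 2.31, SE 0.97) through HepG2 HME 2 alone, which stood at 930 CPM. The other treated libraries, at 55.1 and 53.8 CPM, lay below the controls, at 61.4, 76.7 and 73.1 CPM.

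Further genes were called in HepG2 at the unadjusted thresholds alone. The polarity scaffold SCRIB showed a log2 change of -1.13 (SE 0.36, adjusted p = 0.117), the microvillus protein ESPN -1.01 (SE 0.35, adjusted p = 0.132) and EPS8 1.25 (SE 0.39, adjusted p = 0.105, all edgeR). The desmocollin DSC3 was the only other cadherin called in HepG2, of 6 tested. It gave 3.74, 7.42 and 6.03 CPM in control and 3.15, 1.05 and 1.79 CPM in HME, or 14, 12 and 15 counts against 8, 3 and 3. The groups did not overlap, and the log2 fold change was -1.46 (SE 0.59, adjusted p = 0.188, edgeR). On the same log2 scale the Frizzled receptor FZD3 differed by -1.02 (SE 0.38, adjusted p = 0.159), the desmosome-associated PERP by 1.23 (SE 0.44, adjusted p = 0.15) and the proprotein convertase FURIN by 0.96 (SE 0.39, adjusted p = 0.19, all edgeR).

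In Ls174, 46 of the 169 genes passed the count filter and 8 were called with HME, all lower. That is 17.4% of those tested, against 12% of all genes called and 7.85% called lower. The median log2 fold change of the 46 was -0.38, against 0 of all genes. At an adjusted p under 0.05, 2 of the 46 fell (CLSTN1 and ADAM10), against 1.18% of all genes called, of which 26.9% were higher. Without Ls174 control 1, 15 list genes were called, and without Ls174 HME 3, 5 list genes, in both cases all lower. Over the whole table, these fits called 1824 and 885 genes, against 1353 with every library.

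Of the 8 calls in Ls174, 3 were cadherin proteases, out of 8 tested. ADAM10 gave 45.0, 34.6 and 34.6 CPM in control and 9.79, 14.1 and 13.1 CPM in HME, with a log2 change of -1.62 (SE 0.27, adjusted p = 0.0348, edgeR). ADAM17, a sheddase of the same family, gave 73.4, 67.9 and 56.0 CPM in control and 33.7, 30.8 and 27.8 CPM in HME (log2 fold change -1.10, SE 0.21, adjusted p = 0.0504). In neither gene did the groups overlap. CLSTN1 (calsyntenin-1), a cadherin of the secretory pathway, fell from 84.6, 78.7 and 69.5 CPM to 17.4, 24.1 and 26.5 CPM (log2 fold change -1.78, SE 0.23, adjusted p = 0.0249), the only other cadherin called of 2 tested. CLSTN1 kept an adjusted p under 0.05 in 10 of 16 alternatives and ADAM10 in 9 of 16, with highest values of 0.258 and 0.274. Both missed it without Ls174 control 2, Ls174 control 3 or any of the HME libraries and under 1 further setting, and ADAM10 also with the GC correction (adjusted p = 0.0525, edgeR). Without Ls174 HME 1, 2 or 3, edgeR gave 0 adjusted calls over the whole table, and 1112, 838 and 885 calls at the unadjusted thresholds.

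The remaining calls in Ls174 did not pass the adjusted threshold. Nectin-3 (PVRL3) showed a log2 change of -1.24 (SE 0.34, adjusted p = 0.152), VCL -0.70 (SE 0.25, adjusted p = 0.273), the desmosome-associated PERP -0.61 (SE 0.23, adjusted p = 0.307) and the clustered protocadherin PCDHB14 -1.39 (SE 0.57, adjusted p = 0.342, all edgeR). CTNNB1 had a mean of 598 CPM in control and 465 CPM in HME (log2 fold change -0.37, SE 0.25, not called). None of the 9 tested planar polarity genes and none of the 6 tested genes of the microvillus complex was among the calls, and with 12% of all genes called, nothing can be read from groups of this size.

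**Figure D4:**
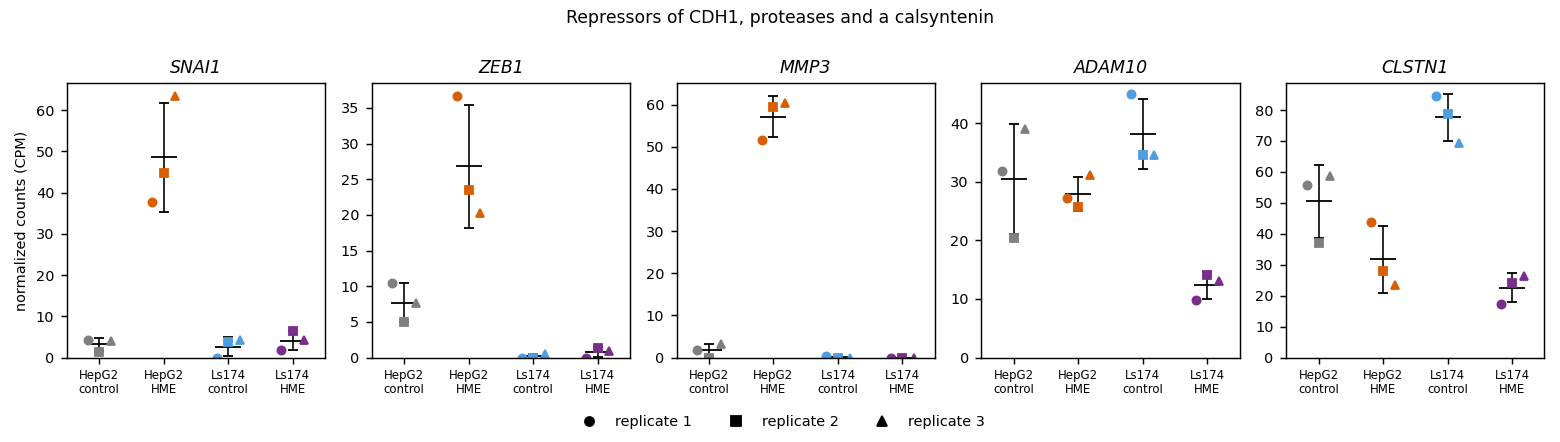
Normalized counts (CPM, vertical axis, separate scale for each gene) of the CDH1 repressors SNAI1 and ZEB1, the proteases MMP3 and ADAM10 and the cadherin CLSTN1 in the 12 libraries. Symbols mark replicates 1 to 3, the wide bar the group mean and the error bar the SD of 3 libraries. SNAI1, ZEB1 and MMP3 are high in HepG2 HME alone, and ADAM10 and CLSTN1 have their lowest means in Ls174 HME.

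The difference of the HME responses between the lines was called for 13 of 57 tested list genes, 12 of them with the lower value in Ls174, or 22.8% against 13.2% of 13040 genes. Of these, 5 were proteases, out of 9 tested. The smallest p-values belonged to ADAM17, with a difference of log2 fold changes of -1.46 (SE 0.39, adjusted p = 0.121), and SNAI1, with -3.32 (SE 0.92, adjusted p = 0.136, both edgeR). Neither passed the adjusted threshold, which 0.644% of all genes passed. At an adjusted p under 0.05 DESeq2 called 7 of the 57 and edgeR 0.

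Between the untreated lines, 23 of 54 tested list genes were called, 7 higher in Ls174 and 16 lower, or 42.6% against 35% of all genes. At an adjusted p under 0.05 it was 16 of 54, against 23.5% of all genes. With scaling by library size alone, which moved the median of all genes from -0.04 to 0.17, the split was 13 higher and 12 lower. PVRL4 was lower in Ls174 control, at 1.74 ± 1.86 against 26.1 ± 3.16 CPM (SD, n = 3, adjusted p = 0.00484, edgeR), as was ZEB1, at 0.170 ± 0.294 against 7.66 ± 2.73 CPM (adjusted p = 0.00338, edgeR). The kidney cadherin CDH16, the LIM protein AJUBA, LIX1L and the microvillus scaffold ANKS4B were also lower in Ls174 control at an adjusted p under 0.05. CDHR2, the brush border partner of CDHR5, gave 126 counts in HepG2 control and 0 in Ls174 control. PKP2 was higher in Ls174 control, at 48.5 ± 8.33 against 14.2 ± 1.69 CPM (SD, n = 3, adjusted p = 0.00544, edgeR), and so were the E-box factor TCF3, the Frizzled receptor FZD6 and PCDHB14. Not all of these were stable. An adjusted p under 0.05 was kept by AJUBA in 9 of 16 alternatives and by TCF3 in 15 of 16. LIX1L kept it in 12 of 15, and FZD6 and PCDHB14 in 10 of 15 each. The kallikrein protease KLK7 gave 64 counts in Ls174 control and 0 in HepG2 control.

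Between the HME-treated lines, 39 of 51 tested list genes were called, 16 higher in Ls174 and 23 lower, or 76.5% against 56.5% of all genes. At an adjusted p under 0.05 it was 38 of 51, against 54.6% of all genes. With HME, PVRL4 was at 80.5 ± 12.7 CPM in HepG2 and 0.581 ± 0.741 in Ls174 (SD, n = 3, adjusted p = 5.44e-07, edgeR). SNAI1 was at 48.6 ± 13.2 and 4.14 ± 2.28 CPM (adjusted p = 1.55e-05), ZEB1 at 26.8 ± 8.64 and 0.798 ± 0.725 CPM (adjusted p = 1.67e-05), and ADAM17 at 146 ± 37.0 and 30.8 ± 2.97 CPM (adjusted p = 1.35e-05, all edgeR). CLSTN3, ANKS4B, LIX1L and VCL were also lower in Ls174 HME at an adjusted p under 0.05, for VCL with HepG2 HME 2 far above the other libraries. Higher in Ls174 HME were PKP2, at 32.6 ± 2.21 against 5.70 ± 2.37 CPM (adjusted p = 4.42e-05, edgeR), and SCRIB, at 56.0 ± 10.6 against 21.3 ± 3.89 CPM (adjusted p = 0.000424, edgeR), together with TCF3, FZD3, CALML4, ARVCF and ADAM15. ADAM15 kept an adjusted p under 0.05 in 10 of 16 alternatives and ARVCF in 15 of 16. MMP3 gave 402 counts in HepG2 HME and 0 in Ls174 HME, and CDHR2 gave 123 and 3 counts. The microvillus scaffold USH1C and KLK7, at 0 in HepG2 HME, gave 83 and 35 counts in Ls174 HME.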

How the data were processed

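RNA of HepG2 and Ls174 cells, with and without HME, was sequenced in 12 libraries (3 per group). Libraries of 3′ ends were built by the authors with QuantSeq reagents for Ion Torrent. The authors aligned the reads to hg19 (GRCh37) with Hisat2 and processed the alignments with metaseqR2, and the labels also name Bowtie2 and Trimmomatic. Versions and the treatment of strand are not given in the sources used here. The deposited files hold whole-number counts of reads for 144910 regions (median width 197 nt) without normalization, and 717 regions are listed under several genes. The libraries held 1790841 to 3656662 counts. Chi-square statistics of the counts between libraries of the same group were 4.44 to 54.1 per degree of freedom, so none was a copy of another in its group. Libraries of different groups were not compared in this way.

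Counts were summed per gene and tested with edgeR 4.0.16 (TMM, filterByExpr, quasi-likelihood F test) in R 4.3.3, each contrast on its 6 libraries and the interaction of line and HME on all 12. The binomial test of the study's methods was not used, since it takes no account of replicate spread. Calls used the thresholds of those methods, a log2 fold change beyond 0.58 either way at an unadjusted p under 0.05, and, where stated, a Benjamini-Hochberg adjusted p under 0.05 over all tested genes. Tests are two-sided. The SE was derived from the F statistic. CPM used 1 TMM scaling of the 12 libraries, and likeness of genes was computed on log2 CPM (prior count 2). Ratios of genes with few counts have exact 95% binomial intervals, which cover counting error only. The procedure was tested on simulated data. The authors call the replicates biological and state that experiments were repeated, but the labels do not say which libraries came from separate cultures, so p-values measure the spread between these libraries.

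The 10 genes, the 7 adhesion lists and the marker lists were chosen with earlier results of these data known. The lists share CDHR2 (other cadherins and microvillus complex), CDH5 (other cadherins and endothelial markers) and VIL1 (microvillus complex and intestinal markers). Named list genes were, for each HME comparison, those with an adjusted p under 0.05 and, up to 8, those called at the unadjusted thresholds with the smallest p. Between the lines they were the 2 with the largest fold change each way in each list among adjusted calls, and for the interaction the 2 with the smallest p. CTNNB1, CDH11, the remaining HepG2 calls (DSC3, FZD3, FURIN, PERP and VCL), the Ls174 values of HepG2 genes and the reverse were added after their values were seen. Alternatives were DESeq2 1.42.0, other scalings, filters, a GC offset (loess, span 0.3), other choices of regions, 1 fit of 12 libraries, a replicate block, other call limits and leaving out each library. Promoters came from RefSeq (GRCh38.p14). Tables and figures used Python 3.11.15, numpy 2.4.6, pandas 2.3.3, scipy 1.17.1 and matplotlib 3.10.9. One gene called in Ls174 is counted in its list but is not reported here by name.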

Additional observations from a re-analysis of the deposited data

Results flagged for a closer look

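In FAT1, DSC2 and the desmosome-associated gene PERP, every HME library lay above every control in HepG2 and below every control in Ls174. Groups did not overlap, in either direction, in 30.8% of all tested genes in HepG2 and in 23.8% in Ls174. The share for both lines together was not computed. The pattern was searched for among the 10 genes and the 169 list genes, where tested in both lines. In HepG2 the log2 fold changes of FAT1 (0.71, SE 0.37) and DSC2 (0.48, SE 0.29) were not called. With a GC correction that of DSC2 was 0.24. PERP nearly touched in Ls174, at 164 CPM in both control 1 and HME 1. The difference of the log2 fold changes, Ls174 minus HepG2, was -3.13 (SE 0.49) for FAT1 and -1.76 (SE 0.36) for DSC2, and no p-value is given for these because the genes were chosen on these contrasts. For PERP it was -1.80 (SE 0.55, adjusted p = 0.167 in the edgeR interaction fit), from log2 fold changes of 1.23 in HepG2 and -0.61 in Ls174. The levels of PERP were 110, 39.6 and 151 CPM in HepG2 control and 291, 207 and 194 CPM in HepG2 HME, and 164, 265 and 264 CPM in Ls174 control and 164, 136 and 156 CPM in Ls174 HME.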

How the results depend on the processing

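Of 546 fold changes of the cadherin genes under alternatives, 531 lay within 1 SE of the reported value, 15 moved further and 0 reversed a called direction, and 30 of the 33 kept their sign in every alternative run. The exceptions in sign were those of DSG2 between the lines and between the responses. The differences of responses of CDH2 and CDH17, which rest on groups with 0 or 1 count and have an SE above 2, were left out of this count, and that of CDH17 changed sign (-1.31, and 0.74 without HepG2 HME 2). The number of list genes called depended on the filter. In HepG2 it was 13, with 20 when no filter beyond 1 count was used, 8 with at least 10 counts in every library and 4 at an adjusted p under 0.05. In Ls174 it was 8, and 2 at an adjusted p under 0.05. Between untreated lines it was 23, with 35 and 12 under those filters, and between HME-treated lines 39, with 24 under the stricter filter. For the interaction it was 13, and at an adjusted p under 0.05 edgeR gave 0 and DESeq2 7. Leaving out a library gave 9 to 17 calls in HepG2, 5 to 15 in Ls174, 21 to 31 and 32 to 41 between the lines and 12 to 14 for the interaction. Same-numbered libraries did not deviate together (correlations of -0.15, 0.073 and -0.116 in HepG2 and -0.0394, 0.00552 and -0.0601 in Ls174), so the numbers were not taken as pairs. With the replicate block the counts were 11, 6, 19, 40 and 11, and in Ls174 0 genes of the whole table passed an adjusted p under 0.05 (1133 at the unadjusted thresholds), against 134 without it, with an adjusted p of 0.142 for CLSTN1 and 0.17 for ADAM10 in edgeR. Without Ls174 control 1, 979 passed. Scaling by library size alone made 33.2% of all HepG2 calls higher, against 50.9%, 53.7% against 43.7% for the interaction and 61.0% against 47.9% between HME-treated lines. The cause of these changes was not tested, and the depth limits CELSR1 and CDHR5 to a few counts.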
